A study of Mus musculus with 12 samples.

Results

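The 10 genes described here are *Tgfb1*, *Tgfb2*, *Tgfb3*, *Bmp4*, *Bmp7*, *Smad6*, *Smad7*, *Id1*, *Id3* and *Tgfbi*, a set of ligands, feedback inhibitors and target genes of transforming growth factor-beta (TGF-β) and bone morphogenetic protein (BMP) signalling. They were taken by name from a gene table of 55487 identifiers measured by RNA-seq in mouse lenses at postnatal day 7 (P7). The choice of names was made with earlier results of these data known. Of the 10 genes, 9 were expressed highly enough to be tested among 8984 genes in all, and *Bmp4* was not.

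The lenses came from 4 genotypes on a C57BL/6J (B6J) background, with 3 libraries each. Wild-type lenses carried no engineered allele, *Trpm3*-I/M (written I/M from here on) and, likewise, *Trpm3*-M/M (M/M) lenses carried 1 copy or both copies of the I65M substitution in the ion channel TRPM3, introduced by CRISPR/Cas9, and *Trpm3*-KO (KO) lenses carried an IRES-LacZ-neo cassette placed by homologous recombination. None of the alleles is restricted to the lens. By the study's design text a library joins 4 lenses from males with 4 from females, and P7 was chosen because the fetal vessel coat of the lens has then mostly regressed and older M/M lenses could not be dissected free of iris and retina.

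TGF-β ligands bind a pair of type II and type I receptors that phosphorylate SMAD2 and SMAD3, whereas BMP ligands act through other receptors on SMAD1, SMAD5 and SMAD9. Both groups then use SMAD4 to reach the nucleus, where they switch on target genes that include their own inhibitors SMAD6 and SMAD7. In the lens, BMP signalling is known for its part in lens induction and fiber cell differentiation, and TGF-β is known for turning lens epithelial cells into matrix-producing, contractile cells in some forms of cataract.

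Libraries held 56162169 to 82090198 estimated counts, and 16 crystallin genes took 49.4% to 63.9% of them. Levels are CPM (counts scaled to library size and TMM factor), the error is the SD over 3 libraries, and a gene counted as called at a fold change of at least 2 with an adjusted p of at most 0.05. *Trpm3* itself lay at 89.9 to 99.7 CPM in KO lenses, below the 251 to 285 CPM of wild-type lenses, at 370 to 413 CPM in I/M lenses and at 469 to 484 CPM in M/M lenses. *Xist*, transcribed from the inactive X chromosome, was at 0.0721 CPM in I/M replicate 3 and at 45.8 to 305 CPM in the other 11 libraries, and the Y-linked *Ddx3y* was highest in that library at 27.2 CPM, which leaves its mix of male and female lenses in doubt. The 10 fiber marker genes summed to at least 18498 CPM and the 8 epithelial markers to at least 19560 CPM in every library, the latter almost all *Cryab* (a mean of 23299 CPM in wild-type and 20590 CPM in M/M lenses).

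In M/M against wild-type lenses, 2 of the 9 tested genes, *Tgfb3* and *Tgfbi*, were higher past both thresholds and 0 lower, beside 6.42% of all tested genes higher and 2.53% lower. With the adjusted p alone, 7 of the 9 were higher and 1 was lower, where 31.4% of all tested genes were higher and 31.4% lower. In I/M against wild-type lenses, *Tgfb3* and *Tgfbi* were again the 2 genes past both thresholds, beside 2.58% of all genes higher and 0.746% lower, and with the adjusted p alone 5 were higher and 1 lower, beside 17.3% and 15.3%. Both *Tgfb3* and *Tgfbi* were tested only through mutant libraries, so that a difference from wild-type had to appear. Of the 7 members at 5 CPM or more in every wild-type library, 0 passed both thresholds in M/M or I/M lenses. In KO against wild-type lenses, 0 of the 9 passed either rule in edgeR, beside 0.568% of all genes for both thresholds and 4.36% for the adjusted p alone. The gene *Id1* was the 1 member with an unadjusted p under 0.05 there, and DESeq2 called 0 of the 9 past both thresholds. Against I/M, M/M lenses gave 1 gene higher past both thresholds, *Tgfbi*, beside 3.67% of all genes higher and 1.02% lower, and by the adjusted p alone 4 genes higher and 1 lower, beside 25.6% and 25.7%. The 3 comparisons with wild-type share the same control libraries and are therefore not independent of each other.

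**Figure D1:**
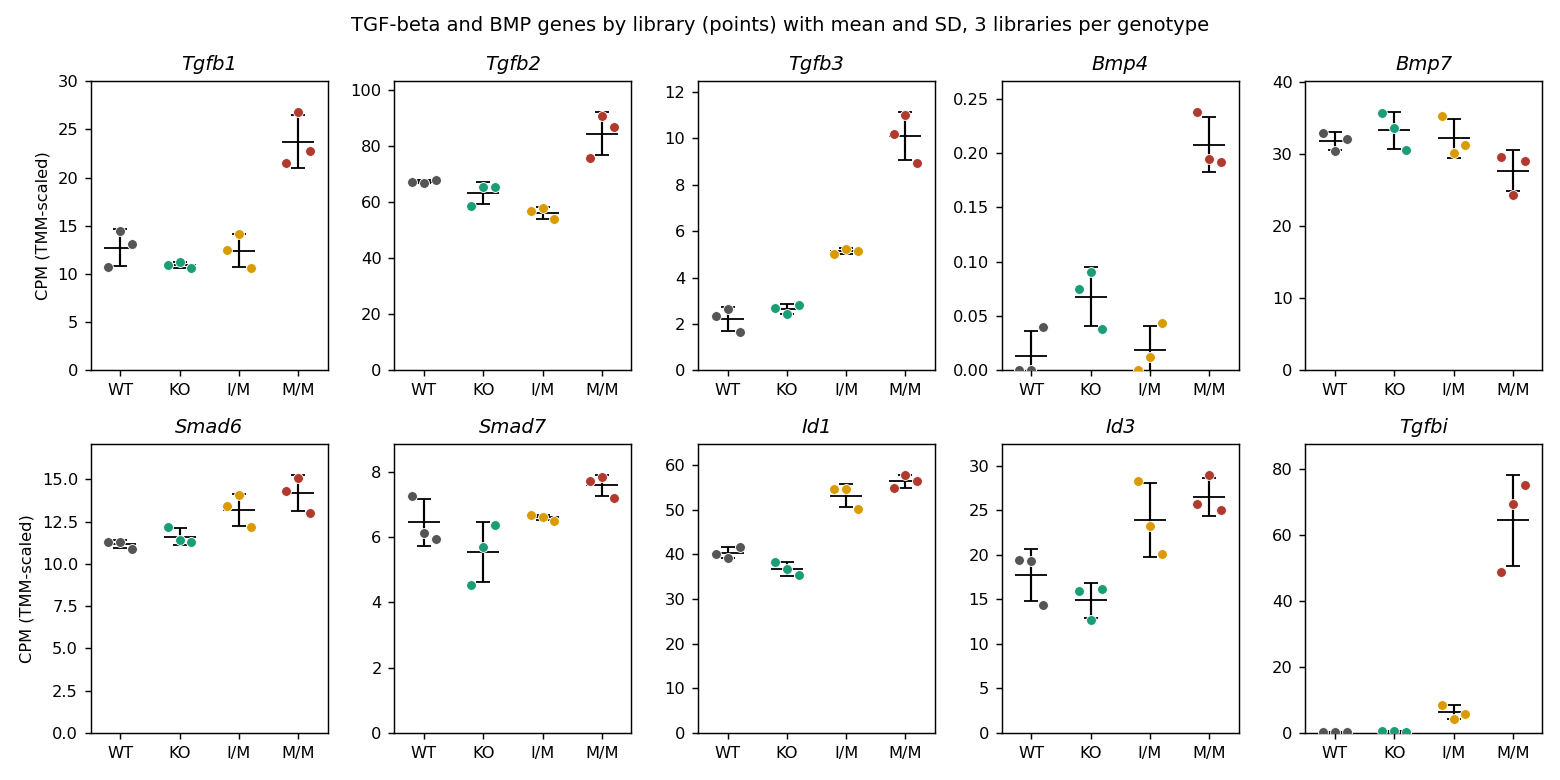
CPM (TMM-scaled, linear axis from 0) of each of the 10 genes in every library, as points grouped by genotype on the x axis (WT, wild-type), with the mean and SD over 3 libraries in black. *Tgfb3* and *Tgfbi* step up from WT and KO to I/M and again to M/M, *Tgfb1* is high in M/M libraries, at 21.5 to 26.8 CPM, and *Bmp4* stays under 0.25 CPM throughout.

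Among the tested ligands, *Tgfb3* (chr12:86056745-86079041, minus strand, mm10) differed most from wild-type in M/M lenses. Its level was 2.36, 2.65 and 1.63 CPM in wild-type lenses, 2.67, 2.41 and 2.82 CPM in KO lenses, 5.02, 5.24 and 5.16 CPM in I/M lenses and 10.2, 11.0 and 8.95 CPM in M/M lenses. The 3 I/M libraries all lay above every wild-type and KO library, and the 3 M/M libraries lay above the I/M libraries, with wild-type and KO overlapping. The log2 fold change against wild-type was 2.19 ± 0.14 (SE, adjusted p = 1.53e-08, edgeR quasi-likelihood test with Benjamini-Hochberg adjustment) in M/M and 1.22 ± 0.14 (adjusted p = 2.13e-05, same test) in I/M, and 0.97 ± 0.12 (adjusted p = 2.13e-05, same test) between M/M and I/M. This last value sat just under the 2-fold line and crossed it without M/M replicate 3, at 1.05, when *Tgfb3* joined *Tgfbi* as called. *Tgfb3* stayed under 5 CPM in every wild-type and KO library and was tested only through the mutant libraries, so that a difference from wild-type had to appear.

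*Tgfb1* (chr7:25687002-25705077, plus strand, mm10) rose in M/M lenses and was close to wild-type in I/M lenses. Its level was 10.7, 14.5 and 13.1 CPM in wild-type lenses, 10.9, 11.2 and 10.6 CPM in KO lenses, 12.5, 14.1 and 10.6 CPM in I/M lenses and 21.5, 26.8 and 22.8 CPM in M/M lenses. Every M/M library lay above every other library, and the wild-type and I/M libraries overlapped. Homozygous lenses had a log2 fold change of 0.90 ± 0.12 (adjusted p = 1.6e-05, edgeR quasi-likelihood test with Benjamini-Hochberg adjustment), a 1.86-fold difference, against -0.04 ± 0.12 in I/M lenses (adjusted p = 0.841). The direct comparison of M/M with I/M gave 0.94 ± 0.11 (adjusted p = 1.79e-05, same test), and it reached 2-fold without I/M replicate 2 (1.04) or M/M replicate 1 (1.00).

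*Tgfb2* (chr1:186622792-186705989, minus strand, mm10), the most abundant TGF-β ligand mRNA per kilobase in these lenses, went down in the heterozygous and up in the homozygous mutant. Its level was 67.3, 66.7 and 67.8 CPM in wild-type lenses, 58.5, 65.3 and 65.4 CPM in KO lenses, 56.9, 57.9 and 53.9 CPM in I/M lenses and 75.8, 90.8 and 86.7 CPM in M/M lenses. The 3 I/M libraries lay below and the 3 M/M libraries above all wild-type libraries. The KO libraries also lay below wild-type, but their log2 fold change of -0.09 ± 0.07 did not pass (adjusted p = 0.501, edgeR quasi-likelihood). Against wild-type, the log2 fold change was -0.26 ± 0.07 in I/M (adjusted p = 0.00858) and 0.33 ± 0.06 in M/M (adjusted p = 0.000641), both under 2-fold, and the M/M to I/M difference was 0.59 ± 0.06 (adjusted p = 8.28e-06, all by edgeR quasi-likelihood with Benjamini-Hochberg adjustment). With scaling by library size only, the fall in I/M shrank to -0.06 (adjusted p = 0.554). All other changes in this report are likewise relative to TMM scaling, which centres the tested genes, and library size alone would shift the median of all genes by 0.50 in M/M, 0.20 in I/M and 0.05 in KO lenses on the log2 scale.

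Per kilobase of exon, which allows genes to be compared with each other, the 3 TGF-β ligands summed to 14.8 ± 0.368 CPM per kb (SD, n = 3) in wild-type, 13.8 ± 0.682 in KO, 13.7 ± 0.704 in I/M and 22.3 ± 1.94 in M/M lenses. *Tgfb2* made up 78.5% ± 2.35 (SD, n = 3) of that sum in wild-type lenses, 71.0% ± 1.14 in I/M lenses and 65.5% ± 1.84 in M/M lenses. The *Tgfb3* share went from 4.42% ± 1.03 to 11.1% ± 0.604 and 13.4% ± 1.43 over the same genotypes, and the *Tgfb1* share from 17.1% ± 2.16 to 17.9% ± 1.61 and 21.1% ± 0.760. Thus the I/M lenses had about the wild-type sum with a different make-up, the *Tgfb3* share of their libraries, 10.7% to 11.8%, lying above the 3.25% to 5.17% of wild-type libraries.

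**Figure D2:**
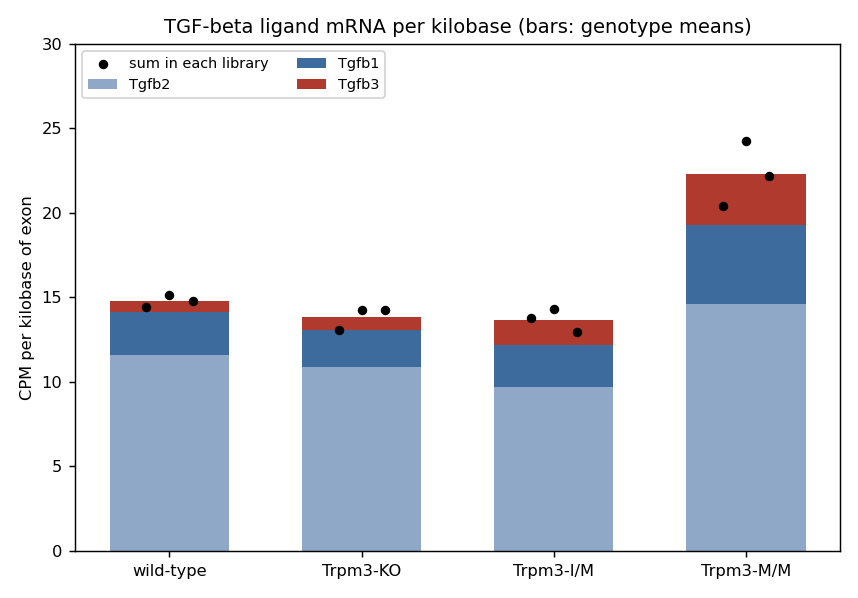
Stacked bars give the genotype means of *Tgfb2*, *Tgfb1* and *Tgfb3* in CPM per kilobase of exon (linear axis from 0), and black points the sum of the 3 ligands in each library. The M/M sums of 20.4 to 24.3 lie above all others, and the *Tgfb3* segment is larger in both mutants than in wild-type or KO lenses.

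The BMP ligands moved little or were scarce. *Bmp7*, expressed in the lens from early development, was at 33.0, 30.5 and 32.1 CPM in wild-type lenses, 35.7, 33.7 and 30.6 CPM in KO lenses, 35.3, 30.2 and 31.3 CPM in I/M lenses and 29.6, 24.4 and 29.1 CPM in M/M lenses. The M/M libraries lay below the wild-type libraries by a small margin, while the other genotypes overlapped wild-type. Its log2 fold change in M/M was -0.20 ± 0.08 (adjusted p = 0.0442, edgeR quasi-likelihood with Benjamini-Hochberg adjustment), but it turned to 0.30 with scaling by library size only. The call was lost without wild-type replicate 1 (adjusted p = 0.114), wild-type replicate 3 (0.0809), KO replicate 2 (0.0516), I/M replicate 3 (0.0518) or M/M replicate 2 (0.184). Against I/M, M/M gave -0.22 ± 0.08 (adjusted p = 0.0359, same test), lost without I/M replicate 1 (0.154) or M/M replicate 2 (0.159) and 0.09 with library size only.

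*Bmp4*, which is needed for lens induction in the embryo, was close to absent at P7. It had 0, 0 and 2 counts in the wild-type libraries, 4, 5 and 2 in KO, 0, 1 and 3 in I/M and 19, 18 and 17 in M/M libraries. The M/M libraries held the most counts, at 0.192 to 0.238 CPM, and the gene was below the level required for testing in every library.

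*Smad6* and *Smad7* encode the inhibitory SMADs, SMAD6 acting chiefly on BMP receptors and SMAD7 on both receptor groups. *Smad6* was at 11.3, 11.3 and 10.9 CPM in wild-type lenses, 12.2, 11.4 and 11.3 CPM in KO lenses, 13.4, 14.1 and 12.2 CPM in I/M lenses and 14.3, 15.1 and 13.0 CPM in M/M lenses. Both mutants lay above wild-type without overlap and overlapped each other. Its log2 fold change was 0.34 ± 0.07 in M/M (adjusted p = 0.000701) and 0.25 ± 0.07 in I/M (adjusted p = 0.0152, both by edgeR quasi-likelihood with Benjamini-Hochberg adjustment). The I/M call was lost without wild-type replicate 3 (adjusted p = 0.0522) or I/M replicate 2 (adjusted p = 0.0765). The difference between the mutants was 0.09 ± 0.07 (adjusted p = 0.246).

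*Smad7* was at 7.27, 6.13 and 5.95 CPM in wild-type lenses, 4.54, 5.70 and 6.37 CPM in KO lenses, 6.67, 6.61 and 6.50 CPM in I/M lenses and 7.71, 7.83 and 7.21 CPM in M/M lenses. Wild-type replicate 1 fell within the M/M range, so these groups overlapped. A log2 fold change of 0.23 ± 0.11 in M/M missed the threshold (adjusted p = 0.0712, edgeR quasi-likelihood with Benjamini-Hochberg adjustment). It passed without wild-type replicate 1 (adjusted p = 0.0245) or KO replicate 1 (adjusted p = 0.0287) and with library size only, where it was 0.74 (adjusted p = 4.89e-05), and in I/M the value was 0.03 ± 0.11 (adjusted p = 0.854).

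*Id1* and *Id3* encode inhibitors of DNA binding that block basic helix-loop-helix factors and are classical direct targets of BMP signalling. *Id1* was at 40.1, 39.3 and 41.7 CPM in wild-type lenses, 38.4, 36.7 and 35.3 CPM in KO lenses, 54.7, 54.6 and 50.3 CPM in I/M lenses and 54.9, 57.8 and 56.4 CPM in M/M lenses. All 6 mutant libraries lay above all wild-type libraries, and the KO libraries lay below them. The log2 fold change was 0.48 ± 0.05 in M/M (adjusted p = 1.77e-06) and 0.40 ± 0.05 in I/M (adjusted p = 3.98e-05), and -0.13 ± 0.05 in KO lenses (adjusted p = 0.168, all by edgeR quasi-likelihood with Benjamini-Hochberg adjustment). The mutants differed by 0.08 ± 0.05 (adjusted p = 0.169).

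*Id3* was at 19.4, 19.3 and 14.4 CPM in wild-type lenses, 15.9, 12.7 and 16.2 CPM in KO lenses, 28.3, 23.2 and 20.1 CPM in I/M lenses and 25.7, 29.0 and 25.0 CPM in M/M lenses. Both mutants again lay above wild-type without overlap, with a wide spread in I/M lenses. Its log2 fold change was 0.58 ± 0.14 in M/M (adjusted p = 0.00222) and 0.43 ± 0.14 in I/M (adjusted p = 0.0291, both by edgeR quasi-likelihood with Benjamini-Hochberg adjustment). The I/M call was lost without wild-type replicate 3 (adjusted p = 0.119), I/M replicate 1 (0.127) or I/M replicate 2 (0.0563). The mutants differed by 0.15 ± 0.13 (adjusted p = 0.357), so for *Smad6*, *Id1* and *Id3* no difference between M/M and I/M lenses passed with TMM scaling, while with library size only all 3 passed, at 0.40 (adjusted p = 0.000105), 0.39 (5.82e-05) and 0.46 (0.00528). *Tgfb1*, *Tgfb2*, *Tgfb3* and *Tgfbi* were higher in M/M than in I/M lenses under both scalings.

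*Tgfbi* (chr13:56609523-56639562, plus strand, mm10) encodes a secreted matrix protein first found as a TGF-β-induced gene and known for its mutations in corneal dystrophies. Its level was 0.354, 0.378 and 0.337 CPM in wild-type lenses, 0.467, 0.525 and 0.413 CPM in KO lenses, 8.55, 4.37 and 5.88 CPM in I/M lenses and 49.0, 69.4 and 75.3 CPM in M/M lenses. The groups were separated in the order wild-type, KO, I/M and M/M with no overlap between neighbours, although the wild-type and KO levels were both close to 0. The log2 fold change was 7.50 ± 0.30 in M/M (adjusted p = 2.51e-10), 4.13 ± 0.37 in I/M (adjusted p = 1.99e-06) and 0.40 ± 0.62 in KO lenses (adjusted p = 0.803, all by edgeR quasi-likelihood with Benjamini-Hochberg adjustment). In fold terms, M/M was 181 times and I/M 17.5 times wild-type, and M/M was 10.3 times I/M (log2 fold change 3.37 ± 0.20, adjusted p = 2.82e-08, same test). As for *Tgfb3*, the gene reached 5 CPM only in mutant libraries, here in 2 of 3 I/M and all M/M libraries, so that a difference from wild-type had to appear.

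**Figure D3:**
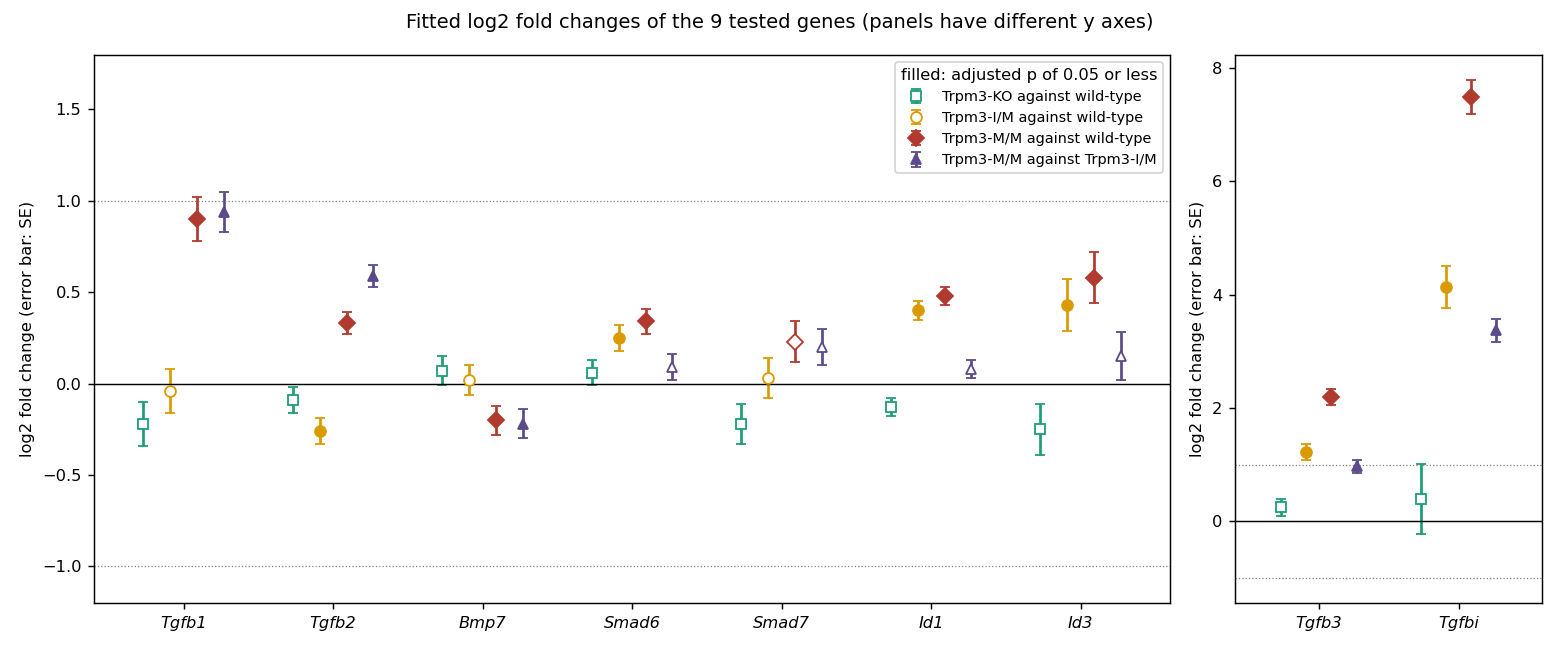
Fitted log2 fold changes (y axis, error bars are SE) of the 9 tested genes in 4 comparisons, with filled symbols at an adjusted p of 0.05 or less and dotted lines at 2-fold. The right panel has its own y axis, reaching 7.50 for *Tgfbi*, while all values in the left panel lie between -0.26 and 0.94.

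Per kilobase of exon, the order of levels in wild-type lenses was *Id1* (34.8 CPM per kb), *Tgfb2* (11.6), *Id3* (9.89), *Bmp7* (7.93), *Smad6* (3.49), *Tgfb1* (2.53), *Smad7* (1.43), *Tgfb3* (0.653), *Tgfbi* (0.0945) and *Bmp4* (0.00588). In M/M lenses *Id1* remained at the top with 48.6 ± 1.27 CPM per kb (SD, n = 3), and *Tgfbi* followed with 17.1 ± 3.66. The *Tgfbi* libraries, at 13.0 to 20.0 CPM per kb, overlapped those of *Id3* (13.9 to 16.2) and *Tgfb2* (13.1 to 15.7), so these 3 neighbours could not be ordered. *Tgfb1* (4.27 to 5.32) and *Smad6* (4.06 to 4.73) overlapped as well in M/M lenses, although in wild-type lenses *Smad6* (3.40 to 3.54) lay above *Tgfb1* (2.12 to 2.87). In the wild-type order *Id3* (8.01 to 10.9) and *Bmp7* (7.60 to 8.21) were the only neighbours whose libraries overlapped.

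Upstream sequence was looked at for the members with a RefSeq promoter entry on GRCm38.p6, the build of the gene table. Of the 10 genes 6 had an entry, and the bases before the annotated transcript start are shown for the 4 tested genes whose window lay outside annotated exons, to set *Tgfbi*, which was nearly silent in wild-type lenses, beside genes that were expressed there. Capitals mark short motifs that SMAD complexes can bind, namely the palindrome GGCGCC and the box CAGAC, which reads GTCTG on the opposite strand, both searched on both strands and not overlapping each other in the windows shown.
*Tgfbi*, chr13:56609336-56609522, plus strand: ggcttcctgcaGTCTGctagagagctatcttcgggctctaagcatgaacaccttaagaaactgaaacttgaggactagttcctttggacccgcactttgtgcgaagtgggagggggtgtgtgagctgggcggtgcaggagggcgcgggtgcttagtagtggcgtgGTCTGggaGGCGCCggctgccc
*Tgfb2*, chr1:186705990-186706239, minus strand: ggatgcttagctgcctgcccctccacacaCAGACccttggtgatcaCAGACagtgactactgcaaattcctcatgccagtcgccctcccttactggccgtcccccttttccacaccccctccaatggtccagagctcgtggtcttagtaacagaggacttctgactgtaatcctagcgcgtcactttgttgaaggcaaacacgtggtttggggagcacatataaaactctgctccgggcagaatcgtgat
*Tgfb1*, chr7:25686752-25687001, plus strand: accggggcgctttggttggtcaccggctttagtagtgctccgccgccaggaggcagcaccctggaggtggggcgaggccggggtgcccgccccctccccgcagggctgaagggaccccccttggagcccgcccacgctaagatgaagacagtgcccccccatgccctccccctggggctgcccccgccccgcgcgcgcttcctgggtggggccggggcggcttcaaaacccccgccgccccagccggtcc
*Smad6*, chr9:64022060-64022309, minus strand: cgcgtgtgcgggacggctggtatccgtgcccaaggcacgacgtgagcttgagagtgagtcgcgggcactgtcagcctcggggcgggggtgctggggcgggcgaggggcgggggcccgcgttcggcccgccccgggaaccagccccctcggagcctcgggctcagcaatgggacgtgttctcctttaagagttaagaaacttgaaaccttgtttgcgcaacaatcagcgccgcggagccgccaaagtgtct
The 187 bases before *Tgfbi* held 1 GGCGCC and 2 CAGAC matches. The 250 bases before *Tgfb2* held 2 CAGAC matches and those before *Tgfb1* and *Smad6* held neither motif. Among 32851 RefSeq promoter entries, 6.49% had GGCGCC and 34.2% had CAGAC in the first 187 bases, and 9.59% and 42.2% in the first 250 bases. These bases were counted from the upstream end of each entry, as the *Tgfbi* window was in its own entry, and were not cut at annotated exons. A match in such a window is a description of its letters and not of binding.

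The rest of the pathway was read from lists of 129 further genes, of which 69 were tested. In M/M against wild-type lenses 18 of the 69 were higher and 1 was lower past both thresholds, beside 6.42% and 2.53% of all tested genes. In I/M 9 were higher and 1 lower (2.58% and 0.746% of all), in KO 0 were called (0.568%), and in M/M against I/M 11 were higher and 1 lower (3.67% and 1.02%). In KO lenses 2 of the 69 had an adjusted p of at most 0.05 in edgeR (4.36% of all tested genes), 13 had an unadjusted p under 0.05 (1629 of all 8984), and DESeq2 called 0 past both thresholds. These 2 were *Acvr2b* (-0.42 ± 0.08, adjusted p = 0.00932, and 0.0571 without KO replicate 2) and *Emilin1* (-0.26 ± 0.07, adjusted p = 0.0456, and 0.0579 to 0.182 without any 1 of wild-type replicates 1 and 3, the 3 KO libraries, I/M replicates 1 and 2 and M/M replicate 3, by edgeR quasi-likelihood). The median log2 fold change in M/M lenses was 0.37 over the 69 genes and 0.00 over all 8984 tested genes, although many list members had passed the expression filter only through the mutant libraries.

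Of 25 other ligand genes only *Gdf11* and *Inhba* were tested, and 16 of the 23 untested ones were under 1 CPM in every library. *Gdf11* had a log2 fold change of 0.60 ± 0.07 and *Inhba*, the activin A subunit, of -0.41 ± 0.10 in M/M against wild-type lenses, both past the adjusted p threshold (1.17e-05 and 0.0028, edgeR quasi-likelihood with Benjamini-Hochberg adjustment). *Inhba* turned to 0.10 with library size only.

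Of 17 receptor and co-receptor genes 10 were tested, and 2 co-receptors, *Eng* and *Tgfbr3*, rose past both thresholds in M/M lenses, beside 6.42% of all tested genes. *Eng*, encoding endoglin, which is most abundant in vascular endothelium, was at 0.138, 0.168 and 0.396 CPM in wild-type, 1.82, 3.40 and 3.70 CPM in I/M and 11.9, 9.98 and 11.1 CPM in M/M libraries. The log2 fold change was 5.54 ± 0.31 in M/M (adjusted p = 5.6e-09) and 3.65 ± 0.35 in I/M (adjusted p = 3.47e-06, edgeR quasi-likelihood with Benjamini-Hochberg adjustment). *Tgfbr3*, encoding betaglycan, which presents TGF-β2 to its receptors, rose from 1.38 to 4.71 CPM on average in M/M lenses (log2 fold change 1.77 ± 0.13, adjusted p = 6.96e-08, same test). Both genes, and the BMP receptor gene *Acvr1*, were under 5 CPM in all wild-type libraries. Before TMM scaling the 3 genes reached 5 CPM only in M/M libraries, so that a higher level in M/M lenses had to appear.

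The tested signalling receptors changed by less than 2-fold. In M/M lenses the BMP type I receptor *Bmpr1a* (0.43 ± 0.05), *Acvr1* (0.74 ± 0.11) and the activin type I receptor *Acvr1b* (0.37 ± 0.06) were higher by the adjusted p. The co-receptor *Rgmb* had 0.26 ± 0.10 (adjusted p = 0.043, edgeR quasi-likelihood) and lost its call without wild-type replicate 2 or 3, KO replicate 3, I/M replicate 2, or M/M replicate 2 or 3, the adjusted p then being 0.0559 to 0.203. The activin type II receptors *Acvr2a* (-0.41 ± 0.07) and *Acvr2b* (-0.22 ± 0.08) were lower with TMM scaling but turned to 0.10 and 0.29 with library size only, and *Acvr2b* lost its call without any 1 of the wild-type libraries or M/M replicate 3 (adjusted p = 0.0546 to 0.121). *Bmpr2* (0.09 ± 0.08) and *Tgfbr1* (-0.12 ± 0.06) did not pass, though *Tgfbr1* was -0.20 without wild-type replicate 2 (adjusted p = 0.00316) and 0.38 with library size only, where *Bmpr2* was 0.59. *Tgfbr2*, the TGF-β type II receptor, had too little expression to be tested, but its mean went from 0.0938 CPM in wild-type and 0.167 CPM in KO to 0.702 CPM in I/M and 4.65 CPM in M/M lenses, where the libraries lay at 3.95 to 5.08 CPM. Also untested, the type I receptor gene *Acvrl1*, best known from endothelium, was at a mean of 0.373 CPM in wild-type, 0.865 CPM in I/M and 3.10 CPM in M/M lenses, and *Bmpr1b* at 1.03, 0.774 and 0.452 CPM.

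Of 6 signalling SMAD genes 5 were tested, and none changed by 2-fold. *Smad1*, on the BMP side, fell in both mutants. It was at 21.5, 22.1 and 17.9 CPM in wild-type, 15.9, 15.0 and 17.6 CPM in I/M and 12.8, 10.4 and 10.6 CPM in M/M libraries, without overlap between the 3 genotypes. Its log2 fold change was -0.86 ± 0.10 in M/M (adjusted p = 3.95e-06) and -0.34 ± 0.09 in I/M (adjusted p = 0.0136, edgeR quasi-likelihood with Benjamini-Hochberg adjustment). The I/M call was lost without wild-type replicate 2 (0.0562) or I/M replicate 2 (0.0561), and the value was -0.14 with library size only. In KO lenses *Smad1* had a mean of 17.1 CPM, beside 16.2 CPM in I/M lenses, and the KO libraries overlapped those of wild-type and I/M. The KO log2 fold change of -0.26 did not pass (adjusted p = 0.16, same test) but did with no expression filter (adjusted p = 0.0052). *Smad5* fell by 0.46 on the log2 scale in M/M (adjusted p = 9.07e-06, same test) but was at 0.05 with library size only. *Smad3* rose by 0.41 ± 0.05 in I/M and by 0.19 ± 0.05 in M/M, and *Smad2* (-0.05 ± 0.05 in M/M) did not pass except with library size only, at 0.46. The shared *Smad4* was -0.17 ± 0.05 in M/M with TMM scaling and 0.34 with library size only.

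Extracellular regulators went in both directions, with 16 of 34 genes tested. In M/M lenses 4 were higher and 1 lower past both thresholds (6.42% and 2.53% of all tested genes), and 10 were higher and 5 lower by the adjusted p alone (31.4% and 31.4%). *Chrdl1*, encoding the BMP antagonist chordin-like 1, was at 6.08, 6.30 and 6.36 CPM in wild-type, 23.1, 22.0 and 20.1 CPM in I/M and 36.1, 39.0 and 36.2 CPM in M/M libraries (log2 fold change 2.57 ± 0.06 in M/M, adjusted p = 4.99e-12, edgeR quasi-likelihood with Benjamini-Hochberg adjustment). The 3 genotypes did not overlap. *Sostdc1*, another BMP antagonist, rose about as much in I/M (2.32 ± 0.16) as in M/M lenses (2.25 ± 0.16), the mutants differing by -0.07 ± 0.13 (adjusted p = 0.663), and the BMP modulator *Twsg1* by 1.16 ± 0.06 in M/M lenses. *Sostdc1* was at 1.43 to 1.98 CPM in wild-type libraries and was tested only through the mutant libraries, so that a difference from wild-type had to appear.

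*Ltbp1*, whose product stores latent TGF-β in the matrix, was at 9.26, 7.63 and 8.46 CPM in wild-type, 22.0, 25.2 and 24.6 CPM in I/M and 30.6, 27.7 and 26.6 CPM in M/M libraries, a log2 fold change of 1.50 ± 0.09 and 1.74 ± 0.09. *Emilin1*, which encodes a matrix glycoprotein known to restrain the maturation of TGF-β, went the other way. It was at 31.9, 29.4 and 34.4 CPM in wild-type, 12.3, 12.5 and 11.4 CPM in I/M and 4.73, 5.51 and 5.09 CPM in M/M libraries, with no overlap, and its log2 fold change was -2.64 ± 0.07 in M/M (adjusted p = 9.45e-12) and -1.41 ± 0.07 in I/M (adjusted p = 7.55e-09, edgeR quasi-likelihood with Benjamini-Hochberg adjustment). *Itgb8*, the integrin subunit that helps to activate latent TGF-β, was at 2.55 to 3.03 CPM in I/M and 6.68 to 8.10 CPM in M/M libraries, on either side of the wild-type 4.90 to 5.15 CPM (log2 fold change between the mutants 1.45 ± 0.09, adjusted p = 5.22e-08, same test). Before TMM scaling *Itgb8* reached 5 CPM only in M/M libraries, so that a higher level in M/M than in I/M lenses had to appear.

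Of 20 membrane and intracellular regulators 19 were tested, and only *Pmepa1*, a TGF-β target whose product holds back SMAD signalling, passed both thresholds in M/M lenses. It was at 10.2, 10.5 and 7.99 CPM in wild-type, 21.0, 25.4 and 18.5 CPM in I/M and 29.2, 36.9 and 34.9 CPM in M/M libraries. The genotypes did not overlap, and the log2 fold change was 1.82 ± 0.12 in M/M (adjusted p = 3.9e-08) and 1.18 ± 0.13 in I/M (adjusted p = 1.03e-05, edgeR quasi-likelihood with Benjamini-Hochberg adjustment). The other 18 gave 5 higher and 5 lower by the adjusted p in M/M lenses, near the 31.4% of all tested genes in each direction.

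A list of 20 TGF-β response genes, *Pmepa1* among them, had 15 tested members. In M/M lenses 12 of the 15 were higher past both thresholds and 0 lower, beside 6.42% and 2.53% of all tested genes, in I/M 5 were higher (2.58% of all) and in KO 0. DESeq2 called 6 in I/M, adding *Col1a1* (1.41, adjusted p = 0.00544), which edgeR gave 1.40 (adjusted p = 0.29) and called without M/M replicate 2 (adjusted p = 0.0228). Only 5 of the 15 reached 5 CPM in every wild-type library, and of these 3 passed both thresholds in M/M lenses, namely *Acta2*, *Ccn2* and *Pmepa1*. The other 10 were low in wild-type lenses and many were tested because they were high in mutants.

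Of the list, *Acta2* and *Ccn2* rose in M/M lenses from clear wild-type levels. *Acta2*, encoding smooth muscle actin, was at 66.6, 75.8 and 62.6 CPM in wild-type, 97.6, 101 and 72.4 CPM in I/M and 169, 254 and 212 CPM in M/M libraries. *Ccn2*, encoding connective tissue growth factor, was at 16.2, 14.0 and 14.6 CPM in wild-type, 41.6, 32.5 and 34.2 CPM in I/M and 42.0, 57.1 and 48.5 CPM in M/M libraries. The M/M libraries lay above wild-type for both, with log2 fold changes of 1.63 ± 0.14 (adjusted p = 4.36e-07) and 1.72 ± 0.12 (adjusted p = 3.93e-08, edgeR quasi-likelihood with Benjamini-Hochberg adjustment). For *Acta2* the I/M value was 0.41 (adjusted p = 0.0431, same test), not passing in DESeq2 (0.0531) or without several single libraries. Its KO libraries, at 52.6, 47.5 and 48.0 CPM, lay below wild-type. That difference of -0.47 did not pass (adjusted p = 0.0919, edgeR) but did with only the 2 genotypes (0.00747).

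The matrix genes were higher in M/M than in wild-type and I/M lenses, from wild-type levels under 5 CPM. *Col1a1*, for the collagen I alpha chain, was at 0.119 to 0.138 CPM in wild-type, 0.231 to 0.404 CPM in I/M and 35.0, 80.2 and 47.7 CPM in M/M libraries. *Fn1*, for fibronectin, was at 2.58 to 3.57, 2.48 to 2.83 and 44.6 to 73.9 CPM in the same order of genotypes. The smooth muscle gene *Tagln* (log2 fold change 5.54 ± 0.29) and the gelatinase gene *Mmp2* (5.94 ± 0.30) also rose in M/M lenses, and so did *Col1a2* by 1.57 ± 0.18, from 3.79 to 4.46 CPM in wild-type and 2.76 to 3.53 CPM in I/M libraries. Before TMM scaling *Col1a1*, *Fn1*, *Tagln*, *Mmp2* and *Col1a2* reached 5 CPM only in M/M libraries. A higher level in M/M than in wild-type or I/M lenses therefore had to appear.

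*Cdkn1a*, for the cell cycle inhibitor p21, followed the pattern of *Tgfbi*, at 0.0983, 0.168 and 0.119 CPM in wild-type, 2.18, 1.23 and 1.36 CPM in I/M and 9.61, 13.5 and 12.4 CPM in M/M libraries. The transcription factor genes *Bhlhe40* (1.90 ± 0.16) and *Junb* (2.48 ± 0.40) rose in M/M lenses and did not pass in I/M lenses. *Junb* was uneven in wild-type libraries, at 1.08, 1.30 and 4.10 CPM. Before TMM scaling *Cdkn1a* and *Junb* reached 5 CPM only in M/M libraries, so that a higher level in M/M lenses had to appear. *Bhlhe40* reached it in 1 wild-type, 1 I/M and 3 M/M libraries.

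**Figure D4:**
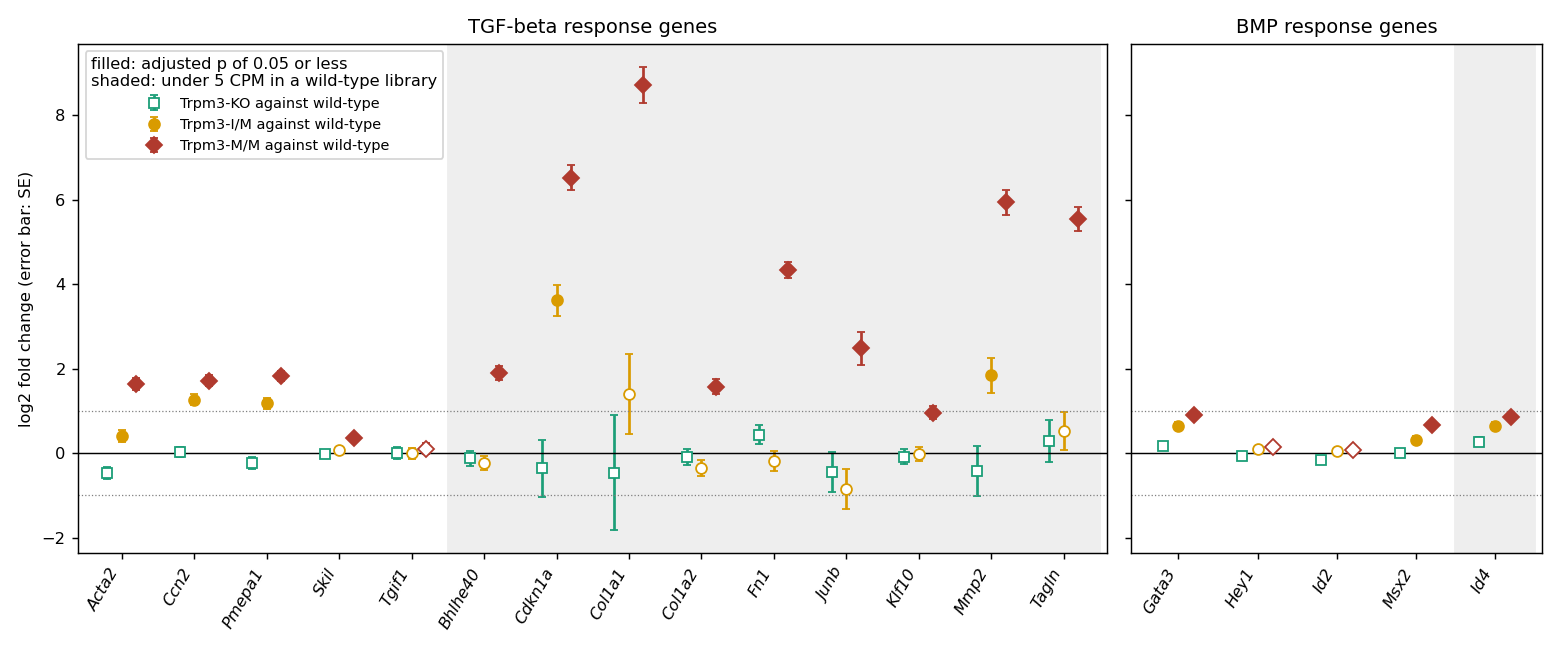
Fitted log2 fold changes against wild-type (y axis, error bars are SE) of 14 of the 15 tested TGF-β response genes and the 5 tested BMP response genes on the x axis, filled at an adjusted p of 0.05 or less, with dotted lines at 2-fold and shading over genes under 5 CPM in at least 1 wild-type library. M/M values reach 8.71 for *Col1a1* on the TGF-β side and 0.90 for *Gata3* on the BMP side, and KO symbols are all open.

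Of 12 BMP response genes 5 were tested, and 0 of them passed both thresholds in any comparison. By the adjusted p alone, *Gata3* (0.90 ± 0.09), *Id4* (0.86 ± 0.10) and *Msx2* (0.67 ± 0.09) were higher in M/M lenses in edgeR, beside 31.4% of all tested genes. An unadjusted p under 0.05 was found for 4 of the 5 and for 5973 of all 8984 tested genes. In I/M lenses 3 of the 5 were higher by the adjusted p, beside 17.3% of all. *Id4* reached 5 CPM before TMM scaling only in mutant libraries. With library size only, *Gata3*, *Id4* and *Msx2* passed both thresholds in M/M lenses.

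Marker genes of other cell types moved with genotype in the same libraries, and in whole-lens RNA more cells of a type and more RNA per cell cannot be told apart. The 8 endothelial markers summed to 5.80 to 8.31 CPM in wild-type, 6.12 to 6.75 CPM in KO, 18.6 to 26.5 CPM in I/M and 50.4 to 57.5 CPM in M/M libraries. Of these markers 5 of 5 tested were called higher in both mutants, beside 2.58% of all tested genes in I/M and 6.42% in M/M. *Pecam1*, *Cdh5*, *Tie1* and *Cldn5* were under 1 CPM in every wild-type library. They were tested only through mutant libraries, so that a difference from wild-type had to appear. Most of the wild-type endothelial sum was *Tek*, with a mean of 5.70 CPM in wild-type, 4.70 CPM in KO, 12.5 CPM in I/M and 11.8 CPM in M/M lenses. The 10 pericyte and fibroblast markers, which include *Col1a1* and *Col1a2* of the response list, summed to 92.2 to 101 CPM in wild-type, 85.0 to 93.8 CPM in I/M and 142 to 196 CPM in M/M libraries, and 2 of 6 tested were called higher in I/M and 4 in M/M. Among the tested ones, *Rgs5*, *Cspg4*, *Col1a1* and *Col1a2* were under 5 CPM in every wild-type library and were likewise tested only through mutant libraries. Most of the wild-type sum was *Pdgfra*, with a mean of 79.4 CPM in wild-type, 65.9 CPM in I/M and 39.0 CPM in M/M lenses, while the pericyte gene *Rgs5* went from 0.507 to 5.98 and 31.1 CPM and *Cspg4* from 0.0878 to 0.476 and 10.1 CPM. The 8 macrophage markers went from 0.337 to 0.492 CPM in wild-type to 0.851 to 1.05 CPM in I/M and 9.84 to 19.5 CPM in M/M libraries.

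Retinal markers were low, the photoreceptor list at 0.651 to 0.872 CPM in wild-type, 0.701 to 0.766 CPM in I/M and 1.65 to 4.45 CPM in M/M libraries and the other retinal list at 1.49 to 1.92, 3.25 to 4.17 and 7.43 to 8.71 CPM. The cornea list was at 0.275 to 0.496 CPM in wild-type, 0.316 to 0.445 CPM in I/M and 3.73 to 7.18 CPM in M/M libraries. Most of it was *Aldh3a1*, at a mean of 0.302 CPM in wild-type and 4.32 CPM in M/M lenses, with *Krt5* at 0.0268 and 0.424 CPM and *Krt14* at 0 and 0.192 CPM, while *Krt12* and *Kera* were at 0 in every library except 1 count of *Krt12* in M/M. Of the 8 lens epithelial markers 4 were lower by the adjusted p in both mutants with TMM scaling, namely *Foxe3* (a mean of 90.8 CPM in wild-type, 46.7 CPM in I/M and 19.2 CPM in M/M lenses), *Sox2* (20.3, 9.49 and 4.44 CPM), *Gja1* (40.2, 16.0 and 20.6 CPM) and *Pax6* (85.4, 64.8 and 55.6 CPM). Past both thresholds 1 of the 8 was higher in each mutant, *Krt18* (0.307, 4.81 and 5.94 CPM), which was under 5 CPM in wild-type libraries. Means in the same order were 58.6, 70.8 and 56.5 CPM for *Cdh1* and 60.8, 62.8 and 67.9 CPM for *Six3*. For *Cryab* they were 23299, 21957 and 20590 CPM. The lens fiber list fell from 34713 to 36962 CPM in wild-type to 18498 to 21323 CPM in M/M libraries. The part of these markers in the rise of *Tgfb3*, *Tgfbi*, *Eng*, *Fn1* and the other genes was not tested.

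Across the 12 libraries, the tested genes whose log2 CPM followed *Tgfb3* most closely were *Zbtb4* (Pearson's r = 0.997), *Tmem268* (0.991) and *Whrn* (0.991). For *Tgfbi* they were *Ece1* (0.996), *Fkbp1a* (0.996) and *C1qtnf12* (0.995), *Fkbp1a* being itself on the list of intracellular regulators as a binding partner of TGF-β type I receptors. These values describe libraries that share genotype, depth and scaling, with 3 libraries at each genotype. *Ece1* had a mean of 60.3 CPM in wild-type, 59.6 CPM in KO, 90.0 CPM in I/M and 123 CPM in M/M lenses, and *Zbtb4* of 14.2, 15.4, 20.1 and 26.7 CPM.

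Leaving out I/M replicate 3 moved none of the 9 genes across the adjusted p threshold in I/M against wild-type or in M/M against I/M lenses. Without it the I/M log2 fold change was 1.22 for *Tgfb3*, 4.17 for *Tgfbi*, 0.44 for *Id1*, 0.54 for *Id3*, 0.30 for *Smad6* and -0.23 for *Tgfb2*.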

How the data were processed

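Lens RNA was measured by RNA-seq in 12 libraries, 3 for each of 4 genotypes. Per the labels and the study's methods, the authors converted and demultiplexed reads with bcl2fastq, aligned and quantified them with DRAGEN on mm10 (GRCm38), and deposited a table of estimated counts per gene, in which 88.4% of values are whole numbers. They analysed it with edgeR and limma. The deposited table of comparisons also holds CPM, log2 fold changes, p-values and FDR, which were not used; its counts equalled the full table for 9470 of 9470 identifiers. Of the columns of per-sample values, 0 were mapped to no sample. Depth was 56162169 to 82090198 counts.

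Counts were rounded and fitted in edgeR 4.0.16 (R 4.3.3) by quasi-likelihood, with TMM factors, all 12 libraries in 1 fit by genotype, genes with at least 5 CPM (before TMM scaling) in at least 3 libraries, and Benjamini-Hochberg adjustment over 8984 genes. The call needed a fold change of at least 2 and an adjusted p of at most 0.05. The fit was tested on simulated counts. Levels per kilobase used exon length from GENCODE M21 (GRCm38), matched by gene identifier. Alternatives were library size only, TMM without crystallin genes, DESeq2 1.42.0, other filters, no fold threshold, only the genotypes compared, a replicate block and each library left out. Same-numbered libraries were checked for pairing and none was found. The labels do not say whether replicates came from separate animals, so p-values measure the spread between these libraries.

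The 10 genes and the pathway and marker lists were chosen with earlier results of these data known. Named besides the 10 genes were *Trpm3*, all pathway genes past both thresholds in any comparison, all tested receptors and signalling SMADs, and the 3 best correlated genes of each of the 10 that was called. *Gdf11*, *Inhba*, *Gata3*, *Id4*, *Msx2*, *Tgfbr2*, *Acvrl1*, *Bmpr1b*, *Hey1*, *Ski*, the marker genes named singly and *Xist* and *Ddx3y* were named after their values were seen. The red blood cell, pigmented cell and ciliary epithelium marker lists gave M/M sums of 12.4 to 15.0, 3.01 to 3.55 and 8.35 to 9.37 CPM, beside 1.22 to 12.0, 3.19 to 3.79 and 8.50 to 10.7 CPM in wild-type libraries. RefSeq promoter entries (GRCm38.p6) were cut at the first annotated exon. The values of 1 tested TGF-β response gene are not reported here; it is counted in the totals of its list.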

Additional observations from a re-analysis of the deposited data

How the results depend on the processing

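Without the fold threshold, 8 of the 9 tested genes were called in M/M against wild-type lenses in place of 2, 6 in I/M in place of 2, and 5 in M/M against I/M in place of 1. Over all genes this gave 5637, 2929, 392 (KO) and 4608 in place of 804, 299, 51 and 422, and over the 69 pathway genes 55, 33, 2 and 45 in place of 19, 10, 0 and 12. With library size only, 4 of the 9 were called in M/M against wild-type and 3 against I/M, with 1354 genes of all and 33 pathway genes in the first, and the higher share of the genes called went from 71.8% to 94.3% and, between the mutants, from 78.2% to 94.5%. The direction of *Bmp7* reversed under that scaling, to 0.30 against wild-type and 0.09 against I/M. With no filter (32253 genes) the counts were 3455, 1215, 343 and 2335 over all genes, 49 in M/M, 23 in I/M and 35 between the mutants over the pathway lists, which then held more tested genes, and 3 of the 10 genes in M/M against wild-type and 2 between the mutants, *Bmp4* being the gene added in both. With a minimum of 1 CPM (12638 genes) they were 1634, 663, 103 and 1009 over all genes and 35, 17 and 24 over the pathway lists. Leaving out 1 library at a time gave 1 to 2 genes of the 9 between the mutants and 2 to 2 against wild-type in either mutant, 778 to 855, 295 to 308, 46 to 56 and 400 to 467 genes over all, and 19 to 21, 10 to 11, 0 to 0 and 12 to 14 pathway genes. Of the other settings for single genes, 732 stayed on the same side of the adjusted p threshold, 16 lost it, 10 gained it and 2 reversed direction. The fold threshold was not part of this count, and a change of sign was left uncounted where neither fit passed the adjusted p.

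The replicate numbers did not pair the libraries, since deviations of 18 same-numbered pairs correlated at -0.26 to 0.15 and only 2 pairs were above 0.1. With the replicate number as a block, 0 of 40 calls of the 9 genes and *Trpm3* changed, and 2 of the 9 genes were called in M/M against wild-type. Of 276 calls of pathway genes 4 changed under the block, *Col1a1* being called in I/M (adjusted p = 0.0294 in place of 0.29), *Hey1* passing the adjusted p in M/M (0.0436), and *Emilin1* in KO (0.0787) and *Ski* in I/M (0.0559) losing it, all by edgeR. Depth limits *Bmp4*, whose 2 wild-type counts leave any fold change against wild-type imprecise.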
